A study of Mus musculus with 9 samples.

Results

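The first step of myogenic differentiation was examined here at the level of circular RNAs (circRNAs): day 3 after the switch to differentiation medium against proliferating cells (day 0). The comparison uses 6 of the 9 libraries of the study, 3 per time point, chosen by their labelled time point, and 30492 of its 37751 circRNAs were listed with reads in at least 1 of these 6 libraries. The cells were C2C12, an established mouse myoblast line derived from skeletal muscle. Day 0 cells were growing below confluence in medium with fetal bovine serum, and day 3 cells had been moved, once confluent, to medium with a lower share of horse serum. No genetic change or drug treatment separates the groups, which therefore differ in medium, confluence and time together. The remaining 3 libraries, from day 6, entered the fits to estimate the spread and are given where a later level helps to read a change. RNA was cleaned on beads and treated with DNase to enrich circRNAs before an mRNA-seq library kit, and a digestion of linear RNA is not named in the sources used here. Reads across back-splice junctions were counted for each circRNA and summed over all circRNAs of a gene (its host), and levels are given as counts per 1000000 back-splice reads after TMM scaling between libraries (CPM).

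In a circRNA a splice donor has been joined to an acceptor that lies upstream of it, so that the covalently closed loop has a junction that the linear messenger RNA lacks. Its abundance depends on transcription of the host gene, on the choice between linear and back-splicing, and on turnover, which is slow for most circRNAs. Myoblasts that leave the cell cycle turn on muscle transcription factors, fuse into multinucleated myotubes, and build sarcomeres, the calcium release machinery of the triad, and the membrane complexes that anchor the contractile apparatus.

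Depth overlapped between the groups. The day 0 libraries held 270392 ± 43857 back-splice reads and the day 3 libraries 323904 ± 28279 (mean ± SD, n = 3, two-sided exact permutation p = 0.2, where 0.1 is the smallest p that 3 against 3 libraries allow). They listed 9480 ± 1860 and 9743 ± 132 circRNAs (exact p = 1) from 3775 ± 416 and 3687 ± 50.4 hosts (exact p = 0.7). Of 12 marker genes of differentiated muscle, 9 had circRNAs in the table, and their summed reads made up 0.0307% to 0.0555% of reads at day 0 and 0.969% to 1.14% at day 3. Ttn, Ryr1 and Dysf were the 3 markers of the 6 tested that passed, where 3.94% of all hosts tested did. These 3 made up nearly all of that sum at day 3, with 2130, 2386 and 2476 reads of Ttn, 664, 655 and 930 of Ryr1 and 277, 263 and 345 of Dysf. No other marker of the panel had more than 29 reads in a day 3 library. The muscle regulators Myod1, Myf5 and Myog and the fusion gene Mymk had no circRNA listed in any library, so the state of the cells could not be checked with them. Of 6 myoblast markers, 4 had circRNAs (Des, Cdh15, Pax7 and Itga7). These held 0.0110% to 0.0296% of reads at day 0 and 0.0175% to 0.0480% at day 3, with overlapping ranges, and none of the 4 passed. Of 6 proliferation markers, 5 had circRNAs, which held 0.0248% to 0.0421% of reads at day 0 and 0% to 0.0140% at day 3. None of the 3 tested passed, which says little where 3.94% of all hosts tested did. Of 10 adipocyte, osteoblast and fibroblast markers, 5 had circRNAs, at 0.0330% to 0.0747% of reads at day 0 and 0.0474% to 0.0841% at day 3, with overlapping ranges. Adipoq, Fabp4, Sp7, Bglap and Lum had no circRNA in the table. In bulk RNA, a change in the share of cells of a kind and a change in circRNA per cell cannot be told apart.

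Most calls were increases. With edgeR's quasi-likelihood test and a Benjamini-Hochberg adjusted p below 0.05, 107 circRNAs were higher and 22 lower at day 3 among 8153 tested. These are 1.31% and 0.27% of all tested, or 1.58% together, and they came from 112 hosts. For 122 of these 129 circRNAs, every day 3 library lay on the same side of every day 0 library, against 16.1% of all circRNAs tested (9.65% higher and 6.43% lower). Of the 107 higher circRNAs, 28 had no read in any day 0 library, and of the 22 lower ones 2, from Racgap1 and Spop, had none at day 3. Summed by host, 126 hosts were higher and 37 lower among 4135 tested, which is 3.05% and 0.895%, or 3.94% together. Groups did not overlap for 161 of the 163 called hosts, against 20.9% of all hosts tested (10.4% higher and 10.4% lower). Over everything tested, log2 fold changes had a median of 0.12 for circRNAs and -0.02 for hosts (-0.15 on library size alone). The share of higher calls among circRNAs was 82.9% of 129, but 62.5% of 272 with DESeq2 and 70.0% of 30 in a fit of only the day 0 and day 3 libraries. Most circRNA calls were thus not made without the day 6 libraries in the fit. Among hosts the share of higher calls was 77.3% of 163, but 59.1% of 286 with DESeq2, 66.9% of 145 on library size alone and 66.7% of 114 in the fit of these 2 groups.

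**Figure D1:**
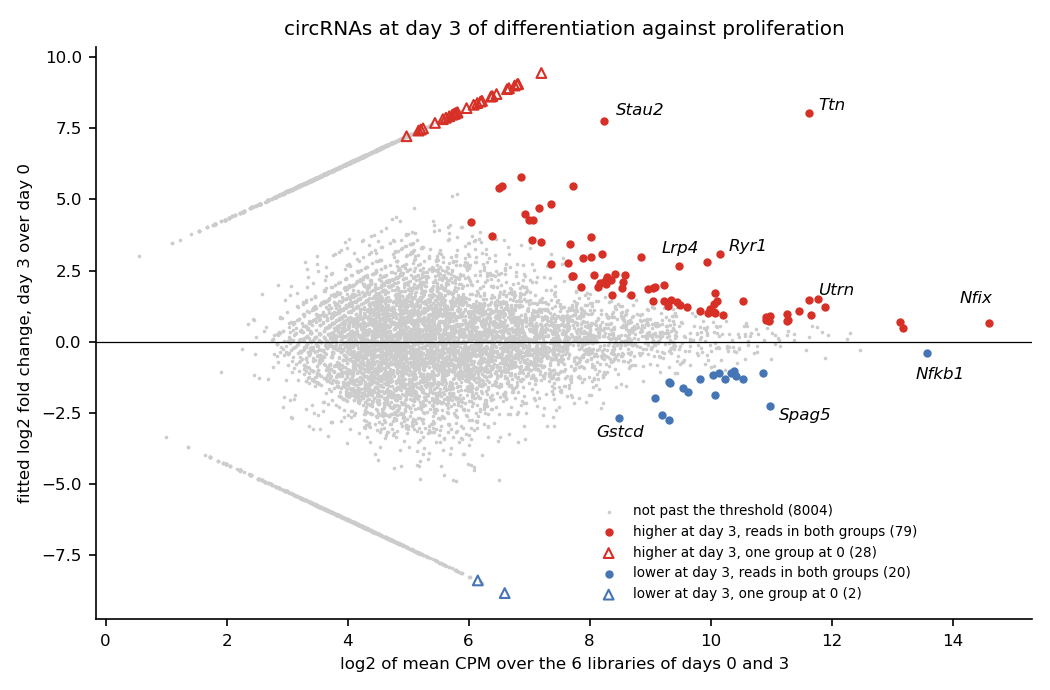
Each point is 1 circRNA: its mean level over the 6 libraries (x axis, log2 of CPM) against the fitted log2 fold change of day 3 over day 0 (y axis). Red and blue points passed the threshold (107 higher, 22 lower). Triangles had no reads in 1 group, so that their height depends on the prior count, and 20 tested circRNAs with no reads on either day are left out.

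A titin circRNA led the increases. Titin (Ttn) is the giant elastic protein that spans from Z-disc to M-band of the sarcomere, and as circRNA and as host it had the smallest p of all tested. Its most abundant circRNA joins the end of exon 129 to the start of exon 125 (chr2:76853605-76856366, minus strand, build GRCm38) and holds only coding sequence. It was at 37.5, 0 and 31.8 CPM at day 0 and 5541, 7204 and 6121 CPM at day 3. Every day 3 library lay far above every day 0 library, 1 of which had no read, and the log2 fold change was 8.03 ± 0.33 (SE, edgeR adjusted p = 2.5e-27). Another 2 titin circRNAs were listed at 0 in all day 0 libraries. The circRNA of exons 125 to 127 reached 135, 242 and 293 CPM at day 3, and that of exons 141 to 150 reached 205, 284 and 188 CPM. With each day 0 library set to 3 reads, these are rises of at least 20.4-fold and 20.6-fold, and later lower bounds use the same floor. The first of them starts at the same splice site as the leading circRNA. Their junctions are shown to make the shared start visible, with the end of the last exon in lower case and the start of the first exon, to which it is joined, in capitals.
Ttn exons 125 to 129: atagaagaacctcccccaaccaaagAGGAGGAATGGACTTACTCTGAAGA
Ttn exons 125 to 127: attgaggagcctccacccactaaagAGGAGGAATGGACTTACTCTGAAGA
Ttn exons 141 to 150: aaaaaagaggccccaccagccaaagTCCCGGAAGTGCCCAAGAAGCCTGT
In the first pair the capitals are the same and the lower-case ends differ, because the splice acceptor is shared and the donors are not.

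The gene lists below and their members were chosen with earlier results of these data known, so called shares in them only describe these data. Of the 26 tested hosts of sarcomere genes, 2 rose and 0 fell, or 7.69% against 3.94% of all hosts tested. The second was Tnnt1, which encodes slow skeletal troponin T, at 0, 0 and 11.3 CPM at day 0 and 248, 143 and 292 CPM at day 3 (log2 fold change 5.84 ± 0.93, edgeR adjusted p = 4.3e-05). Its only day 0 reads were in replicate 3, so the fitted change of 9.10 without that library depends on the prior count. The fitted change was 5.20 without day 0 replicate 1. The median log2 fold change of the list was 0.89, but 0.58 with the 10 hosts that had no reads in 1 group set at their bounds. In the fit of only these 2 groups it was 0.15, over the 16 hosts of the list which that fit tested. Reads of all sarcomere hosts made up 0.211 ± 0.0371% of the total at day 0 and 0.96 ± 0.0796% at day 3, and Ttn alone had 2130, 2386 and 2476 of the day 3 reads. Of the hosts that did not pass, the one with the most reads was the nonmuscle myosin gene Myh9, at 688, 847 and 602 CPM at day 0 and 655, 731 and 944 CPM at day 3, with overlapping groups. The tissue markers nebulin (Neb) and embryonic myosin (Myh3) had no reads at day 0 and were at 22.6, 101 and 0 CPM and 0, 80.0 and 70.1 CPM at day 3, and neither passed (edgeR adjusted p = 0.372 and 0.195).

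Ryr1, the calcium release channel of the sarcoplasmic reticulum, gave the second-strongest call. Its circRNA of exons 86 to 92 (chr7:29035980-29040893, minus strand) was at 387, 201 and 127 CPM at day 0 and 1769, 2054 and 2295 CPM at day 3. The groups were far apart, and the log2 fold change was 3.09 ± 0.26 (edgeR adjusted p = 2.5e-13). A second Ryr1 circRNA, deposited as intronic (chr7:29035962-29040893), shares the start of exon 86 and ends 18 bp beyond the annotated exon end. It was listed at 0 in the day 0 libraries and at 247, 189 and 173 CPM at day 3, a rise of at least 18.5-fold. The junction of the exonic circRNA has the end of exon 92 in lower case and the start of exon 86 in capitals.
Ryr1 exons 86 to 92: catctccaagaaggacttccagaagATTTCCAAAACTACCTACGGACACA
Ryr1 was the 1 host that rose among 24 tested hosts of calcium handling and excitation-contraction coupling genes, and 0 fell (4.17% of the list). That is close to the 3.94% of all hosts. Fitted changes were positive for 21 of the 24, with a median of 0.82, beside 2024 of 4135 and -0.02 over all hosts, and the list's share of reads was 0.707 ± 0.0139% at day 0 and 1.1 ± 0.0886% at day 3. Among those that did not pass, Asph, which encodes junctin and junctate isoforms and held the most reads, was at 2708, 3111 and 3599 CPM at day 0 and 3676, 4669 and 3228 CPM at day 3, with overlapping groups.

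Genes of the dystrophin complex, the costamere and the neuromuscular junction contributed 3 higher and 0 lower hosts of 40 tested. That is 7.5%, against 3.94% of all hosts tested, with a list median of -0.05. Lrp4 encodes the muscle receptor for agrin, the nerve signal that clusters acetylcholine receptors. The circRNA of its exons 14 to 16 (chr2:91480313-91481980, plus strand) was at 353, 212 and 167 CPM at day 0 and 1583, 1592 and 1952 CPM at day 3 (log2 fold change 2.80 ± 0.25, edgeR adjusted p = 2.8e-12). Utrn encodes utrophin, the dystrophin homologue that is enriched at the neuromuscular junction of mature fibres. The circRNA of exons 61 to 65 (chr10:12436281-12455564, minus strand) was already abundant in proliferating cells, at 1961, 1616 and 1516 CPM at day 0 and 4144, 4789 and 4977 CPM at day 3 (1.45 ± 0.15, edgeR adjusted p = 2.7e-10). Neither circRNA had overlapping groups. Their junctions, with the same use of capitals, were as follows.
Lrp4 exons 14 to 16: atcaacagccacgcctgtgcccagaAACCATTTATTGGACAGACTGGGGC
Utrn exons 61 to 65: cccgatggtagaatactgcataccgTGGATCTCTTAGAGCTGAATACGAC
Nos1, the neuronal nitric oxide synthase that binds the dystrophin complex, had no circRNA reads at day 0 and 41.9, 31.3 and 29.2 CPM summed over its circRNAs at day 3, a rise of at least 3.22-fold. At day 6 it was at 356, 409.9 and 192 CPM. The Nos1 call (edgeR adjusted p = 0.00768) was lost in the fit of only these 2 groups.

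Regulators of myogenesis and fusion had the largest share of higher hosts among the gene lists reported here, 7 of 37 tested with 0 lower. That is 18.9%, against 3.05% of all hosts tested that rose, although the list median was only 0.22. Dysf encodes dysferlin, a membrane repair protein of muscle, and was at 118, 242 and 109 CPM at day 0 and 893, 915 and 1008 CPM at day 3 (2.59 ± 0.31, edgeR adjusted p = 2.2e-07). Mef2a, a transcription factor of muscle genes, was at 337, 351 and 594 CPM at day 0 and 1370, 939 and 1504 CPM at day 3 (1.57 ± 0.26, edgeR adjusted p = 0.0001). Both hosts kept clear of overlap. Nfix, a nuclear factor I gene active in fetal muscle, had by far the most reads, with 18923, 23072 and 21676 CPM at day 0 and 38652, 26766 and 36551 CPM at day 3 and a small change (0.68 ± 0.13, edgeR adjusted p = 0.00054). Its lowest day 3 library, replicate 2, lay closest to the day 0 libraries. Celf2, a splicing regulator of muscle, changed by 2.74 ± 0.44, but by 3.49 without day 0 replicate 3. The engulfment gene Elmo1, which acts with Dock proteins in myoblast fusion, changed by 2.48 ± 0.63, but by 3.09 without day 0 replicate 1, and its call was lost with DESeq2 and in the fit of only these 2 groups. The E-protein genes Tcf4 and Tcf12, whose products pair with myogenic bHLH factors, changed by 2.10 ± 0.52 and 1.31 ± 0.37. The Tcf4 call was lost without day 0 replicate 3 and without day 3 replicate 3 (edgeR adjusted p = 0.0578 to 0.124), and the Tcf12 call without day 0 replicate 1, day 0 replicate 2 or day 3 replicate 3 (0.0842 to 0.223).

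Macf1 links microtubules to actin, and its circRNA of exons 2 to 5 (chr4:123536202-123554365, minus strand) was at 137, 166 and 279 CPM at day 0 and 1059, 1216 and 1407 CPM at day 3 (2.66 ± 0.30, edgeR adjusted p = 3.7e-09). Tns3 encodes tensin 3 of focal adhesions, and its circRNA of exons 18 to 20 (chr11:8478225-8479665, minus strand) was at 1627, 1369 and 2448 CPM at day 0 and 5679, 5245 and 4543 CPM at day 3 (1.51 ± 0.17, edgeR adjusted p = 1.6e-09). In both, each day 3 library exceeded all day 0 libraries. The Z-line and stress-fibre adaptor gene Sorbs2 summed to 549, 578 and 737 CPM at day 0 and 1915, 1851 and 1946 CPM at day 3 (1.62 ± 0.21, edgeR adjusted p = 9e-07). Extracellular matrix and adhesion genes as a list did not lean one way: 2 rose (Tns3 and the fibronectin gene Fn1) and 1 fell (Ltbp1) of 44 tested. That is 6.82%, against 3.94% of all hosts tested, with a median of -0.23. Ltbp1, which tethers latent TGF-beta in the matrix, went from 3298, 2912 and 3159 CPM to 1651, 981 and 1382 CPM (-1.22 ± 0.21, edgeR adjusted p = 0.00016). Fn1 was at 266, 375 and 275 CPM at day 0 and 767, 908 and 727 CPM at day 3, and its call was lost without day 3 replicate 2 (edgeR adjusted p = 0.0591). Junctions of the first pair follow.
Macf1 exons 2 to 5: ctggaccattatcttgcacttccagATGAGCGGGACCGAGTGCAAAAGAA
Tns3 exons 18 to 20: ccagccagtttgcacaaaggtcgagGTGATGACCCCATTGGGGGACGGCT

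Some leading increases came from genes with no role in contraction. Abca1, the exporter that loads cellular cholesterol onto apolipoproteins, had a circRNA of exons 3 to 5 (chr4:53127597-53133015, minus strand) with no reads at day 0 and 292, 245 and 346 CPM at day 3, a rise of at least 26.9-fold (edgeR adjusted p = 3.4e-10). Rad52, a gene of homologous recombination, had a circRNA of exons 10 and 11 (chr6:119920110-119921028, plus strand) at 2039, 2206 and 2591 CPM at day 0 and 5326, 5784 and 4930 CPM at day 3 (1.23 ± 0.14, edgeR adjusted p = 7.7e-09). Hsf2bp, known mainly from meiotic recombination, had a circRNA of exons 5 to 7 at 0, 0 and 27.9 CPM at day 0 and 411, 358 and 469 CPM at day 3. Its reads at day 0 were all in replicate 3, and the fitted change was 5.48 ± 0.76 (4.85 without day 0 replicate 1). Without replicate 3 no day 0 reads remained, so the fitted 9.96 depends on the prior count. Its call was lost in the fit of only these 2 groups. Pkhd1, the gene of polycystic kidney disease protein fibrocystin, had no circRNA reads at day 0, 184, 101 and 172 CPM at day 3 and 951, 1102 and 744 CPM at day 6. The rise at day 3 was at least 14.3-fold (edgeR adjusted p = 2.3e-08). Adgrl3, an adhesion receptor of the latrophilin family, summed to 670.2, 371 and 538 CPM at day 0 and 2628, 2783 and 2609 CPM at day 3 (2.34 ± 0.22, edgeR adjusted p = 8.9e-10). All 5 had groups without overlap. In the energy and lipid list, 2 of 22 hosts rose (Abca1 and Lpin1) and 0 fell (9.09%, against 3.94% of all hosts tested), with a median of 0.52. The call of Lpin1, a phosphatidate phosphatase gene, was lost without day 0 replicates 1, 2 or 3 and without day 3 replicates 1 or 3 (edgeR adjusted p = 0.0636 to 0.0863). The junctions of 2 of these circRNAs are shown, since they have no counterpart in the muscle lists.
Abca1 exons 3 to 5: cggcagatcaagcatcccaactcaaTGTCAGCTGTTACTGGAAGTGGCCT
Rad52 exons 10 to 11: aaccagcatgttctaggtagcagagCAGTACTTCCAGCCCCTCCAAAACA

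**Figure D2:**
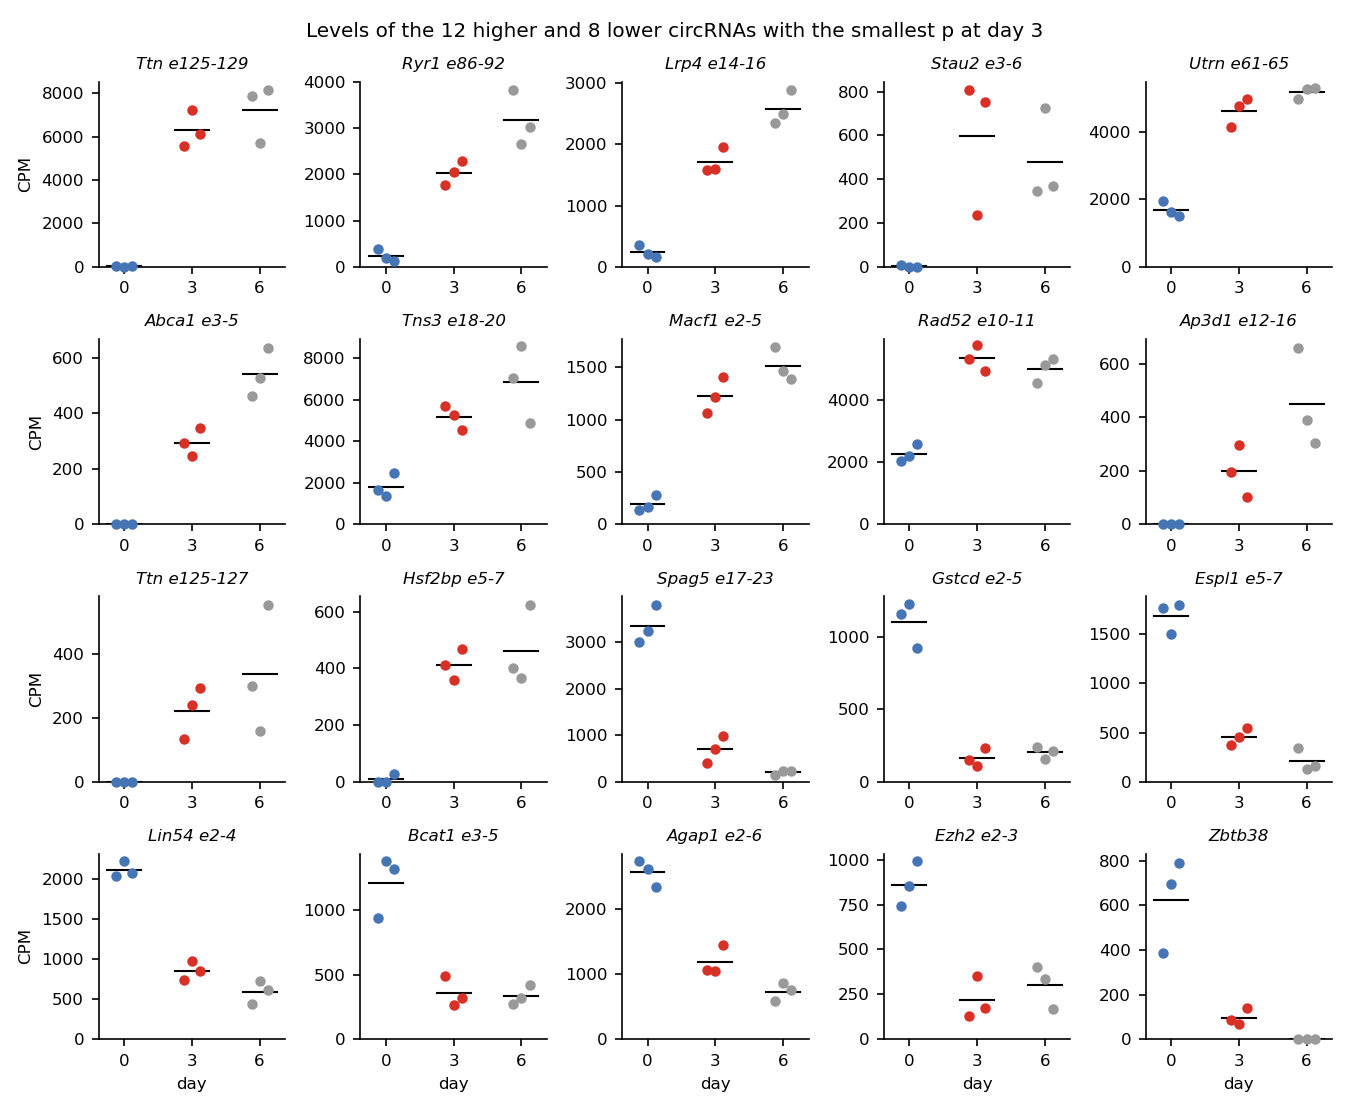
Points give the level (CPM, y axis from 0) of single circRNAs in each library at days 0, 3 and 6 (x axis), and bars the mean of 3 libraries. The first 12 panels hold the higher and the last 8 the lower circRNAs with the smallest p at day 3, with first and last exon after the gene name where both ends lay on exon edges of 1 transcript. In all 20 panels the day 0 and day 3 libraries are separate.

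Arhgap10, a gene of a GTPase-activating protein, summed to 5950, 6612 and 8105 CPM at day 0 and 10766, 12122 and 11545 CPM at day 3 (0.74 ± 0.13, edgeR adjusted p = 0.00027). Splicing factors and RNA-binding proteins had 5 higher (Celf2, Rbm20, Stau2, Cnot6l and Raly) and 1 lower host (Hnrnpll) of 70 tested. That is 8.57%, against 3.94% of all hosts tested, around a median of -0.03. Rbm20, the splicing factor known for titin and other sarcomere transcripts, was at 1910, 1253 and 1456 CPM at day 0 and 3179, 3810 and 2772 CPM at day 3 (1.08 ± 0.19, edgeR adjusted p = 0.00019). Raly had no reads at day 0 and 126, 164 and 164 CPM at day 3, and its call was lost without day 0 replicates 2 or 3 or day 3 replicate 3 (0.0622 to 0.0780). Hnrnpll was at 1107, 800.2 and 861 CPM at day 0 and 264, 418 and 409 CPM at day 3, and its call was lost without replicate 1 of either day (0.0587 and 0.0947).

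Membrane traffic genes had 3 higher and 0 lower hosts of 87 tested (3.45%, median 0.31), close to the background of 3.94%. They were the polarity gene Pard3 and, with no reads at day 0, the exocyst subunit gene Exoc1 and the spindle orientation gene Insc. TGF-beta, BMP, Wnt, Notch and Hippo signalling had 2 higher (Amotl1 and Tgfbr2) and 0 lower hosts of 53 (3.77%, median -0.06), also close to that background. Both calls were lost without day 0 replicate 2 (edgeR adjusted p = 0.0843 and 0.108). Without day 0 replicate 3, Tgfbr2 changed by 2.57 in place of 1.71 ± 0.45. Hosts of circRNAs conserved between mammals had 6 higher (Nfix, Arhgap10, Psd3, Rere, Bnc2 and Ncoa2) and 1 lower (Cpsf6) of 42. That is 16.7%, against 3.94% of all hosts tested, with a median of 0.17. Ncoa2 and Cpsf6 stood nearest the threshold and lost their calls in all single-library omissions except that of day 0 replicate 1 (0.123 to 0.312). None of 11 tested hosts of quiescent and reserve cell genes passed, against 3.94% of all hosts tested. An unadjusted edgeR p below 0.05 was found for 0 of the 11, against 556 of all 4135 hosts. With so few hosts, these counts say little. Of 10 tested hosts in the adipocyte, osteoblast and fibroblast list, 1 rose and 0 fell (10%, against 3.94% of all hosts tested). The 1 that rose was Tcf4, the E-protein gene of the myogenic list, and it is not read here as a marker of those cells. The list median was -0.58, which became 0.30 without day 0 replicate 3. In the fit of only these 2 groups it was 0.20, but that fit tested only 4 hosts of the list.

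Cell cycle and mitosis genes were the largest listed group among the losses. Of 60 tested hosts, 0 rose and 10 fell (16.7%, against 0.895% of all hosts tested that fell). Fitted changes were negative for 51 of the 60, with a median of -1.70. Like the other lists, this one was chosen with earlier results of these data known, so its share is a description. Their circRNAs held 2.52 ± 0.0449% of reads at day 0, 0.883 ± 0.056% at day 3 and 0.588 ± 0.0475% at day 6. Spag5, which encodes the spindle protein astrin, gave the strongest loss. Its circRNA of exons 17 to 23 (chr11:78319986-78321766, plus strand) was at 3004, 3231 and 3801 CPM at day 0 and 398, 694 and 988 CPM at day 3 (-2.27 ± 0.26, edgeR adjusted p = 6.3e-09). Espl1 encodes separase, the protease that opens cohesin rings at anaphase. The circRNA of its exons 5 to 7 (chr15:102299803-102304145, plus strand) was at 1765, 1504 and 1803 CPM at day 0 and 376, 452 and 542 CPM at day 3 (-1.89 ± 0.33, edgeR adjusted p = 0.00012). Both circRNAs were lower in each day 3 library than in any day 0 library. Their junctions were as follows.
Spag5 exons 17 to 23: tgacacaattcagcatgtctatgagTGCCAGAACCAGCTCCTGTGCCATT
Espl1 exons 5 to 7: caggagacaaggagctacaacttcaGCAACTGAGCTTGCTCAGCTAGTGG
The other hosts that fell were the formin gene Diaph3 (-2.03 ± 0.30), the kinetochore scaffold gene Knl1 (-1.94 ± 0.34), the citron kinase gene Cit (-1.45 ± 0.29), Mtbp (-3.10 ± 0.57), Lin54 of the DREAM complex (-1.15 ± 0.22), the spindle checkpoint kinase gene Bub1b, the centralspindlin subunit gene Racgap1 and the augmin subunit gene Haus6. The last 3 were the least stable. Bub1b lost its call without day 0 replicates 2 or 3 or day 3 replicate 3 (edgeR adjusted p = 0.112 to 0.151), and Racgap1 without day 0 replicates 1 or 3 or day 3 replicate 1 (0.0933 to 0.145). Haus6 lost it without any 1 of the 6 libraries (0.0602 to 0.329), and Racgap1 changed by -3.38 without day 3 replicate 3 in place of -2.39 ± 0.71.

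DNA replication and repair genes gave fewer calls: 1 host rose and 3 fell of 59 tested (6.78%, against 3.94% of all hosts tested). Of the 59 fitted changes, 43 were negative, with a median of -1.15. The host that rose was Rad52, given above. The translesion polymerase gene Rev1 changed by -1.25 ± 0.31, the checkpoint gene Topbp1 by -3.19 ± 0.87 and the ubiquitin ligase gene Rad18 by -4.53 ± 1.35. None of these 3 calls held without every library. Rev1 lost it without day 3 replicate 3 (edgeR adjusted p = 0.142), Topbp1 without day 0 replicates 2 or 3 or day 3 replicate 3 (0.0659 to 0.104), and Rad18 without day 0 replicate 3 or day 3 replicate 1 (0.110 to 0.594). Topbp1 changed by -4.13 without day 3 replicate 1 and by -2.60 without day 3 replicate 3, and Rad18 by -3.17 without day 0 replicate 3 and by -9.39 without day 3 replicate 3. Chromatin regulators were split, with 2 higher (Kat6b and Brwd3) and 2 lower (Ezh2 and Nsd2) of 80 tested. That is 5%, near the 3.94% of all hosts tested, and their median of 0.11 became -0.04 on library size alone. Ezh2, the methyltransferase of Polycomb complex PRC2, was at 1237, 1386 and 1335 CPM at day 0 and 232, 682 and 298 CPM at day 3 (-1.71 ± 0.35, edgeR adjusted p = 0.00138), or -2.31 without day 3 replicate 2. Nsd2, a histone H3 lysine methyltransferase gene, was at 1733, 1916 and 1429 CPM at day 0 and 738, 585 and 949 CPM at day 3 (-1.16 ± 0.26, edgeR adjusted p = 0.00364). Brwd3 lost its call without day 0 replicate 3 or day 3 replicates 2 or 3 (0.0820 to 0.140).

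Other strong losses belonged to no list. Gstcd, a gene with a glutathione transferase-like domain, had a circRNA of exons 2 to 5 at 1162, 1226 and 923 CPM at day 0 and 148, 109 and 235 CPM at day 3 (-2.75 ± 0.41, edgeR adjusted p = 6e-06). Bcat1, the cytosolic branched-chain aminotransferase gene, had a circRNA of exons 3 to 5 (chr6:145032783-145039635, minus strand) at 943, 1384 and 1321 CPM at day 0 and 488, 263 and 322 CPM at day 3 (-1.76 ± 0.35, edgeR adjusted p = 0.00079). Pvt1, a long noncoding RNA gene next to Myc, summed to 2832, 4122 and 4028 CPM at day 0 and 1677, 1284 and 964 CPM at day 3 (-1.48 ± 0.23, edgeR adjusted p = 3.5e-05). None of the 3 had overlapping groups. Among the 12 lower circRNAs with the smallest p were also those of Lin54 (-1.30 ± 0.26), Ezh2 (-1.97 ± 0.43), Diaph3 (-1.64 ± 0.38), Knl1 (-2.57 ± 0.63), the small GTPase gene Rras2 (-1.12 ± 0.26) and Ube2cbp (-1.33 ± 0.32). Of these, Diaph3 lost its call without day 0 replicate 3 (edgeR adjusted p = 0.139), Ezh2 without day 3 replicate 1 (0.0550), and Rras2 and Ube2cbp without either (0.0689 to 0.187). Knl1 changed by -3.47 without day 3 replicate 2, and its call was lost with DESeq2, with a minimum count of 10 and when days 0 and 3 were fitted alone. The Racgap1 circRNA (exons 5 to 11) and the Spop circRNA (exons 3 to 6), at 234, 123 and 223 CPM and 65.6, 166 and 195 CPM at day 0, were listed at 0 in all day 3 libraries. These are at least 20.1-fold and 14.7-fold lower, but the Racgap1 call was lost without day 0 replicates 1 or 3 (edgeR adjusted p = 0.0576 and 0.0714), with a minimum count of 10 (0.0648) and with DESeq2 (adjusted p = 0.0502). The Spop call was lost in every single-library omission except that of day 0 replicate 1 (0.0537 to 0.0803) and when days 0 and 3 were fitted alone (0.120).

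**Figure D3:**
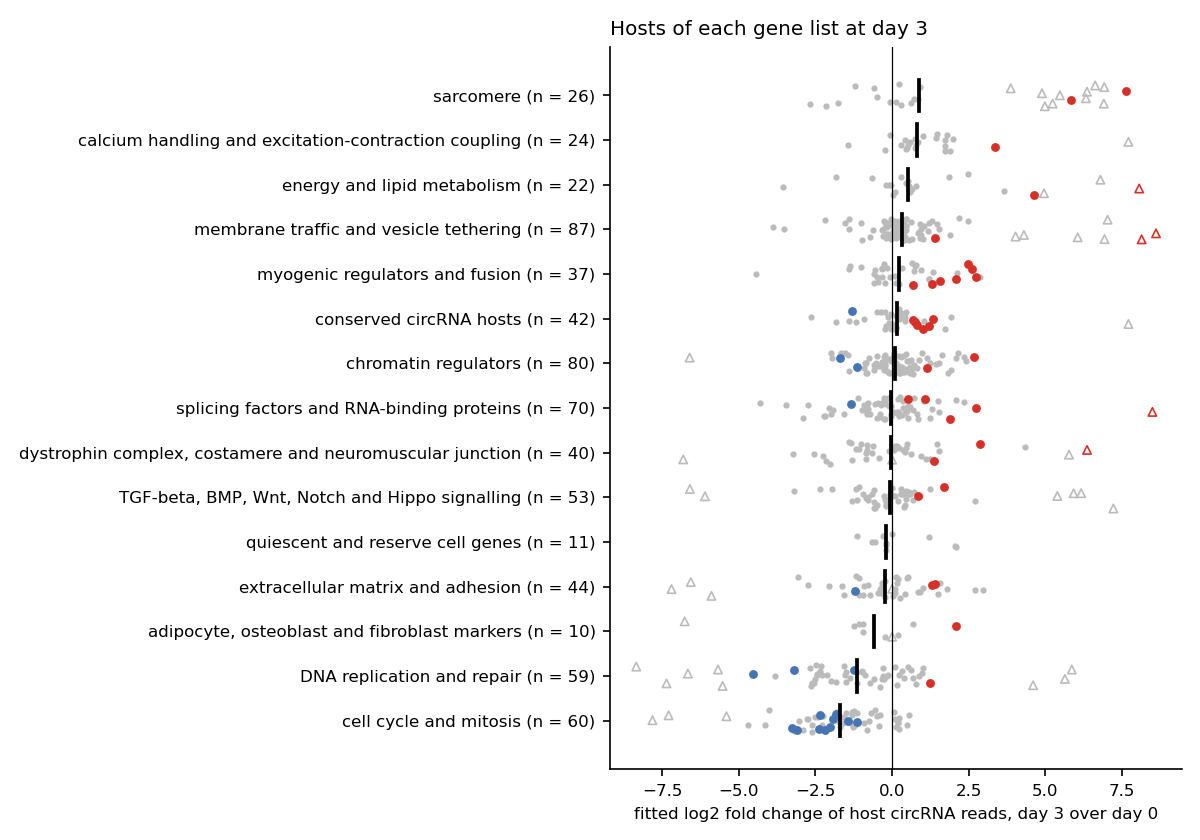
Each point is the fitted log2 fold change (x axis) of the circRNA reads of 1 host, by gene list (y axis, 15 lists, with the number tested, ordered by median). Red points rose, blue fell and grey did not pass, triangles had no reads in 1 group so that their place depends on the prior count, and black bars are list medians. The cell cycle list has the lowest median (-1.70). The sarcomere median (0.89) is drawn above that of calcium handling (0.82), but is below it (0.58) with hosts without reads in 1 group at their bounds.

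Most hosts passed at both levels. Of the 112 hosts with a called circRNA, 99 (88.4%) were also called as hosts, and these are 60.7% of the 163 called hosts. The 13 others passed for a circRNA and not for their sum. Ap3d1, Rmdn2, Ppfia1, Msrb3 and Samd4 each had 1 higher circRNA with host changes of only 0.38, 0.09, 0.70, 0.65 and 0.36, all with edgeR adjusted p above the threshold. Ppfia1, Msrb3 and Samd4 lie outside the naming rule and were chosen after their values were seen. Agap1, which encodes a GTPase-activating protein for Arf1, was the 1 host with calls in both directions. The circRNA of exons 2 to 6 (chr1:89604598-89634294, plus strand) was at 2736, 2607 and 2336 CPM at day 0 and 1059, 1041 and 1451 CPM at day 3 (-1.11 ± 0.23, edgeR adjusted p = 0.00155). That of exons 7 to 9 (chr1:89663661-89671271, plus strand) was at 1412, 1323 and 1584 CPM at day 0 and 2395, 2640 and 2295 CPM at day 3 (0.76 ± 0.20, edgeR adjusted p = 0.0254), a call lost without day 3 replicates 1 or 2 (edgeR adjusted p = 0.0785 and 0.0974). The Agap1 sum did not change detectably (0.04, edgeR adjusted p = 1). The 2 circRNAs share no exon, as their junctions show.
Agap1 exons 2 to 6: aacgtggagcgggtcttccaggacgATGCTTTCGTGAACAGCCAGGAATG
Agap1 exons 7 to 9: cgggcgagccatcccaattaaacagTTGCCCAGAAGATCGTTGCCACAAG

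At least 2 circRNAs were called in each of 15 hosts, 3 of them in Ttn. The hosts not yet described at this level were Arhgap10, Tns3, Adgrl3, the dynein intermediate chain gene Dync1i1, the transcriptional corepressor gene Rere, Fam53b and Lrch1, each with 2 higher circRNAs. As hosts, Dync1i1, Rere, Fam53b and Lrch1 changed by 2.08 ± 0.29, 0.81 ± 0.16, 3.56 ± 0.56 and 2.29 ± 0.28, and Fam53b by 2.91 without day 0 replicate 1 and 4.51 without day 0 replicate 2. Among the 17 pairs of called circRNAs from the same host, 7 shared an end, in 6 cases the acceptor and in 1 the donor. That is 41.2% of pairs, against 32.8% of 16862 same-host pairs of tested circRNAs. Shared acceptors occurred in Ttn, Ryr1, Abca1, Hsf2bp, Fam53b and Rnf150, and the shared donor in Dysf. The Abca1 circRNAs of exons 3 to 5 and 3 to 7 were both listed at 0 at day 0, and were at 292, 245 and 346 CPM and 96.3, 70.1 and 49.8 CPM at day 3. The longer one lost its call without any 1 of the day 0 libraries or without day 3 replicate 1 (edgeR adjusted p = 0.0689 to 0.106). The Rnf150 circRNAs, from a membrane-bound RING finger gene, start at exon 2 and end at exon 4 or exon 6. They were at 181, 247 and 247 CPM at day 0 and 844, 964 and 677 CPM at day 3 and at 175, 81.0 and 99.5 CPM at day 0 and 559, 557 and 501 CPM at day 3. The second lost its call in every single-library omission except that of day 0 replicate 1 (0.0583 to 0.122). In Dysf, the circRNAs of exons 31 to 40 and 37 to 40 end at the same donor, and were at 0, 0 and 0 and 125, 162 and 39.8 CPM at day 0 against 189, 116 and 191 and 472, 666 and 580.4 CPM at day 3. Both Dysf calls were lost in the fit of only these 2 groups. The shared donor and the 2 acceptors can be read from the junctions.
Dysf exons 31 to 40: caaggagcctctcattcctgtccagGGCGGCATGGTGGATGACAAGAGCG
Dysf exons 37 to 40: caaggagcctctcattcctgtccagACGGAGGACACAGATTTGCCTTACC

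A change in the share of a circRNA among all circRNA reads of its host was tested apart from the level of the host, to find junctions that switch. Of 6549 circRNAs in 1649 hosts with at least 2 tested circRNAs, 6 gained share and 0 lost it (edgeR diffSpliceDGE, 0.0916%). An unadjusted p below 0.05 was found for 336 of the 6549. That is about as many as this threshold passes where no share changes, so no wider switching is read from them. The clearest were Ap3d1 and Stau2. In Ap3d1, which encodes the delta subunit of the AP-3 adaptor, the circRNA of exons 12 to 16 (chr10:80715871-80719812, minus strand) was listed at 0 at day 0 although the host had 120, 84 and 33 reads. It took 50%, 71.4% and 42.2% of host reads at day 3 and 90.2%, 94.1% and 59.0% at day 6 (edgeR adjusted p = 3.4e-06). The Ap3d1 sum itself did not pass (0.38, edgeR adjusted p = 0.913), and the circRNA-level call was lost in the fit of only these 2 groups. Stau2 encodes a double-stranded RNA-binding protein of RNA transport. Its circRNA of exons 3 to 6 went from 1.39%, 0% and 0% to 54.0%, 27.1% and 61.3% (edgeR adjusted p = 3.4e-06), but day 0 replicate 2 held only 5 Stau2 reads in all. In CPM it was at 6.25, 0 and 0 CPM at day 0 and 806, 238 and 753 CPM at day 3, a log2 fold change of 7.76 ± 0.77. Without day 0 replicate 1 no day 0 reads remained, so the fitted 10.45 depends on the prior count.

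Nav2, a cytoskeleton-associated gene of the neuron navigator family, gained a circRNA of exons 8 to 12 (chr7:49452399-49491491, plus strand), listed at 0 at day 0 and at 25%, 14.1% and 21.1% of host reads at day 3 (edgeR adjusted p = 0.012). The transcriptional repressor gene Etv6 gained one deposited as intronic (chr6:134062064-134066465), from 0 to 40.0%, 51.1% and 58.6% (0.012). Rmdn2, a gene of a microtubule-associated protein, gained one at 18.8%, 17.1% and 9.68% (0.0212), and the predicted gene Gm13483 an intronic one at 33.3%, 57.1% and 68.9% (0.0331). In all 6 the day 3 libraries lay above every day 0 library, which adds no support because the same values gave the calls. The number of these calls fell to between 1 and 3 without any library but day 3 replicate 2, the lowest without day 0 replicate 3. The 2 called Agap1 circRNAs did not pass this test. The one of exons 2 to 6 made up 44.4%, 44.4% and 40.1% of Agap1 reads at day 0 and 18.3%, 16.3% and 25.6% at day 3, and that of exons 7 to 9 22.9%, 22.6% and 27.2% and 41.4%, 41.4% and 40.5% (edgeR adjusted p = 0.811 and 0.841). Junctions of the exonic circRNAs with coding ends are shown.
Ap3d1 exons 12 to 16: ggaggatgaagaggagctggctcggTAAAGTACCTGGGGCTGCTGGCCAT
Nav2 exons 8 to 12: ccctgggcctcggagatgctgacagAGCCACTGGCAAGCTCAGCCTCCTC

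**Figure D4:**
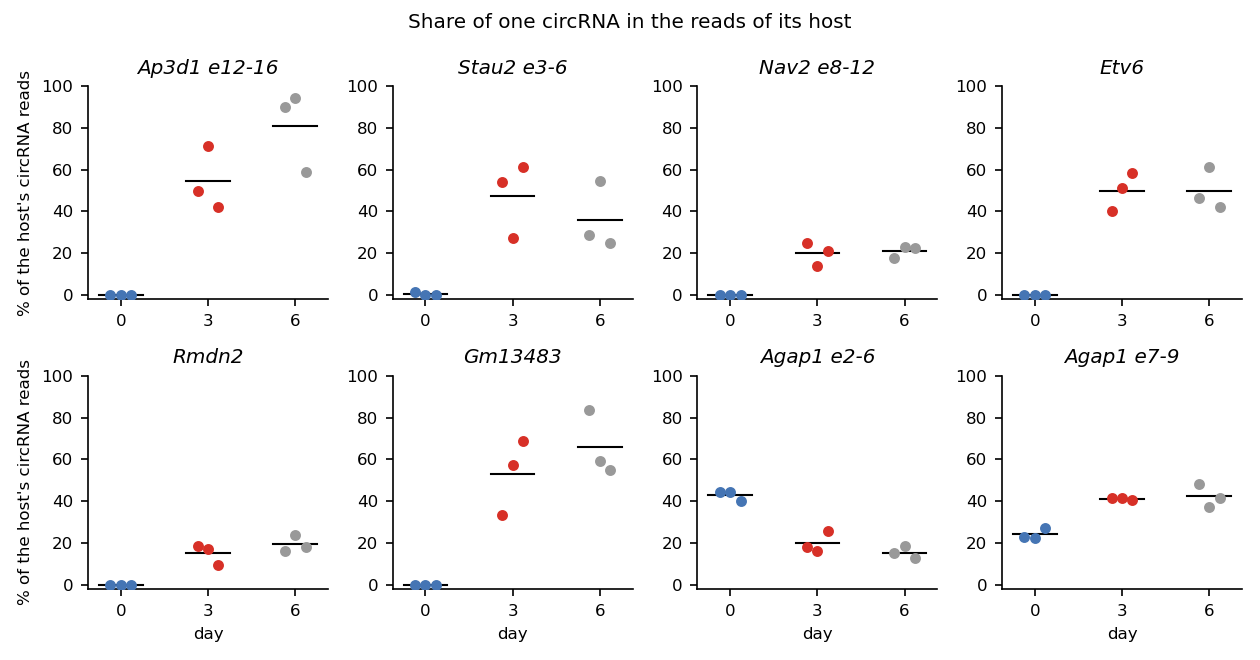
Points give the share (%, y axis from 0 to 100) of 1 circRNA in the circRNA reads of its host in each library at days 0, 3 and 6 (x axis), and bars the mean of 3 libraries. The first 6 panels are the circRNAs that passed the test of share, which are at or near 0 at day 0. In the last 2, from Agap1, the shares differ in opposite directions without passing.

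The share of reads by the position of the circle in its gene also differed between the groups. CircRNAs whose first exon is exon 2, the most common start, held 37.6%, 39.2% and 38.6% of reads at day 0 and 35.5%, 35.4% and 35.9% at day 3. Those that hold the annotated start codon went from 17.7% ± 0.338 to 15.4% ± 0.154, and those made only of coding sequence from 70.7% ± 0.499 to 74.95% ± 0.396 (SD, n = 3 each). CircRNAs with a genomic span over 20 kb went from 21.6% ± 0.822 to 23.6% ± 0.459, and intronic ones from 4.22% ± 0.0827 to 3.38% ± 0.0674. Those with an identifier in circBase, a public circRNA catalogue, went from 29.4% ± 0.729 to 32.6% ± 0.518, and the 10 most abundant circRNAs from 7.71% ± 0.428 to 9.25% ± 0.402. Exonic circRNAs went from 94.9% ± 0.0598 to 95.7% ± 0.0782 and intergenic ones from 0.865% ± 0.0520 to 0.953% ± 0.0179. In these 9 of 10 shares the libraries did not overlap (exact permutation p = 0.1 each, the smallest possible, 0.111 adjusted over 10), so the design cannot take them below 0.05.

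The single-exon share did not separate the groups (5.64% ± 0.790 and 6.63% ± 1.42, exact permutation p = 0.4). Its largest member was the circRNA of Nfix exon 2, named after its values were seen, at 17530, 20287 and 20534 CPM at day 0 and 35131, 23180 and 33156 CPM at day 3 (0.65 ± 0.09, edgeR adjusted p = 2.6e-06). Without it, an alternative added after seeing the data, the single-exon difference was 0.0839 points in place of 0.985 and that of the 10 most abundant circRNAs 0.802 in place of 1.54. The single-exon difference was 0.439 without day 3 replicate 1 and 1.79 without day 3 replicate 2.

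**Figure D5:**
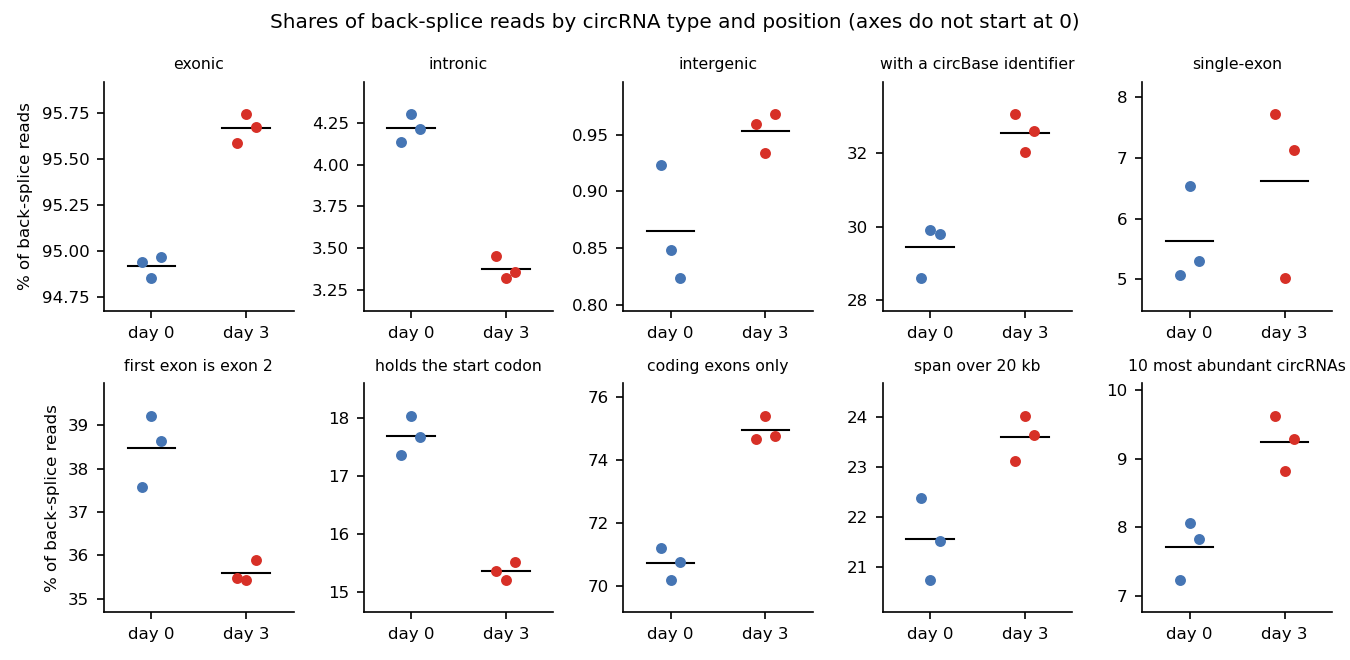
Points give the share of all back-splice reads (%, y axis, which does not start at 0) held by circRNAs of each type or position in the 3 libraries of day 0 and of day 3 (x axis), and bars the mean. The groups overlap only for single-exon circRNAs. Shares of exon 2 starts, start codons and intronic circRNAs are lower at day 3 and the other 6 without overlap are higher.

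Called circRNAs in the 2 directions sat at different places in their genes. Among those with both ends on exon edges of 1 transcript, 11 of 21 lower ones (52.4%) began at exon 2, against 22 of 97 higher ones (22.7%) and 29.6% of 7373 tested. The start codon lay in 7 of 21 lower ones (33.3%), 14 of 97 higher ones (14.4%) and 14.7% of those tested. Lin54 exons 2 to 4, Gstcd exons 2 to 5 and Ezh2 exons 2 and 3 are lower circRNAs that hold it. The median first exon was 2 for lower, 5 for higher and 4 for all. Higher circRNAs came from longer stretches of genome, with a median span of 15905 bp against 7580 bp for lower ones and 9802 bp for all, while the spliced lengths were close (518, 443 and 539 nt). The introns beside higher circRNAs had a median of 13453 bp upstream and 18437 bp downstream, against 8562 and 8529 bp for lower ones and 8580 and 6201 bp for all. Of the higher circRNAs, 31 of 107 (29.0%) had a circBase identifier, of the lower 12 of 22 (54.5%), and of all tested 9.68%. These shares describe the called sets and were not tested. They count each circRNA once, whatever its level. By reads of all circRNAs at day 0, exon 2 starts held 38.5%, start codons 17.7% and circBase circRNAs 29.4%. Whether the level that a call needs accounts for these differences was not tested.

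One called circRNA was deposited as intergenic (chr2:77074836-77173607). It was at 205, 147 and 176 CPM at day 3 and 0 at day 0, a rise of at least 16.1-fold (edgeR adjusted p = 0.00028), a call lost in the fit of only these 2 groups. It shares the coordinate 77074836 with a called circRNA of exons 6 to 8 of Ccdc141, which encodes a coiled-coil protein and lies near Ttn on chromosome 2. That Ccdc141 circRNA was at 0, 0 and 31.8 CPM at day 0 and 177, 382 and 273 CPM at day 3. Its day 0 reads were all in replicate 3, and the fitted change was 4.71 ± 0.87 (4.08 without day 0 replicate 1). Without replicate 3 no day 0 reads remained, so the fitted 9.38 depends on the prior count. Its call was lost in the fit of only these 2 groups. As a host, Ccdc141 summed to 97.4, 27.3 and 395 CPM at day 0 and 958, 1576 and 1081 CPM at day 3 (2.80 ± 0.44, edgeR adjusted p = 3.2e-05), and changed by 4.23 without day 0 replicate 3.

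The levels at day 6 stand beside these, and because both comparisons use the day 3 libraries they are not independent. Between day 3 and day 6, 5 of 8153 circRNAs (0.0613%) and 3 of 4135 hosts (0.0726%) passed. Spag5 fell further, from 398, 694 and 988 CPM to 148, 223 and 234 CPM for its circRNA of exons 17 to 23 (log2 fold change of day 6 over day 3 -1.77 ± 0.26, edgeR adjusted p = 3.9e-05). A circRNA of the zinc finger gene Zbtb38 (chr9:96718210-96752573, minus strand) was at 384, 694 and 792 CPM at day 0, 83.5, 66.6 and 138 CPM at day 3 and 0 at day 6 (edgeR adjusted p = 1.1e-05 for day 6 against day 3). Its day 3 call was lost without day 0 replicates 2 or 3 or day 3 replicates 1 or 2 (0.0664 to 0.183). Pkhd1 rose further as a host (edgeR adjusted p = 0.00183). The Ttn, Lrp4 and Utrn circRNAs printed above had day 6 levels of 7222 ± 1329, 2572 ± 284 and 5190 ± 193 CPM against 6288 ± 844, 1709 ± 211 and 4637 ± 437 at day 3 (SD, n = 3), and none of these 3 passed between days 3 and 6.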

How the data were processed

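The deposited table holds whole-number counts of back-splice reads for each circRNA in each library, not normalized by the authors, beside its locus, its type, its host gene ID and, where there is one, its circBase name. BWA and the build GRCm38.p4 (mm10) are named per the submitters' processing notes. Not given in the sources used here are the circRNA caller, its filters and how duplicates were treated. The smallest count above 0 is 2, so that 0 can stand for a single read. Whether replicates were separate cultures is not stated per the labels, and p-values therefore reflect only how far these samples differ, which may be technical. Reads carry no molecular identifiers here, so the floor of 3 reads covers counting error only.

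Counts were fitted with edgeR 4.0.16 in R 4.3.3 (TMM factors, minimum count 5 and minimum total 15, quasi-likelihood F-test, 9 libraries, 6 residual degrees of freedom), for circRNAs and for host sums. The filter kept 8153 circRNAs with 86.2% of reads and 4135 of 6943 hosts with 97.4%. P-values were adjusted over all tested features. SEs come from the fitted change and its F value, and fitted folds use a prior count of 0.125. Shares of host were tested with diffSpliceDGE and shares of reads with exact permutation. The procedures were also run on simulated negative binomial counts with known changes, which checks the code and not the calls made here. Exons and coding ends come from GENCODE M21 transcripts (GRCm38) with exon edges at both ends, protein-coding first, then the one with most exons. Of the circRNAs, 117 carried 2 gene IDs. They were summed under the joined ID as a host of its own and added to neither single gene. Another 113 circRNAs lay on the strand opposite to their host. Replicates differed by more than sampling noise (chi-square per degree of freedom 11.8 to 16.1), and no 2 libraries were identical.

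Named circRNAs are the 12 with the smallest p per direction, the 8 with the largest fitted change per direction where described, those that passed the test of share, and those of hosts with 2 or more calls. Named hosts are the 12 with the smallest p per direction and every called host of 17 gene lists (the results of 2 of these lists are not reported here), and hosts that did not pass are examples with the highest level. Members and lists were chosen with earlier results of these data known. Alternatives were library size alone, upper-quartile factors, DESeq2 1.42.0, other filters, a fit of only days 0 and 3, the replicate number as a block, and leaving out each library.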

Additional observations from a re-analysis of the deposited data

How the results depend on the processing

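Every alternative kept more circRNAs and hosts higher than lower. DESeq2 called 170 circRNAs higher and 102 lower, and 117 hosts lower. The fit of only the day 0 and day 3 libraries called 21 circRNAs higher and 9 lower, and 76 hosts higher. Without each library in turn, 82 to 151 circRNAs were higher and 15 to 23 lower, and 102 to 131 hosts were higher and 27 to 42 lower. CircRNAs with a changed share of their host numbered 2 in the fit of only these 2 groups, 2 with the replicate block, and 1 to 5 without each library in turn. The Agap1 host sum turned to -0.0965 on library size alone, -0.0753 with DESeq2 and -0.00381 without day 3 replicate 2, within a range up to 0.0797 over the left-out libraries, and passed in none of these. The difference in hosts listed per library, -88, became 57.7 with circRNAs listed in at least 2 libraries, 77.3 with those past the filter, and -313.5 to 97 without each library. That in circRNAs listed, 263, ranged from -748 without day 0 replicate 2 to 1082.5 without day 0 replicate 3. Read shares that moved by over 1.5 times were exonic (0.281 and 0.251 points with the same 2 restrictions, against 0.751), intronic (-0.443 and -0.395 against -0.839), intergenic (0.162 and 0.145 against 0.0882) and circBase (1.78 past the filter, against 3.12). Without the called circRNAs, added after seeing the data, circBase was 1.84, intergenic 0.146, start codon -1.37 (against -2.32), single-exon 0.167 (against 0.985) and the 10 most abundant 0.302 (against 1.54), while exonic, intronic and long-span differences grew. Those circRNAs were chosen for their change, so nothing is read from this. The cause was not tested.

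Of 55 named circRNAs 21 and of 73 named hosts 49 lost their call under no alternative that tested them. An alternative that filtered a feature out or gave it no adjusted p was not counted as a loss. Besides the losses given above, the hosts Stau2, Insc, Lpin1, Amotl1, Tgfbr2, Topbp1, Rad18, Tcf4, Tcf12, Ncoa2 and Brwd3 were among those that lost theirs in the fit of only these 2 groups. Stau2 lost its call also with DESeq2, and Cnot6l on library size alone. With the replicate number as a block, 119 circRNAs were higher and 25 lower, and 144 hosts higher and 44 lower. Same-numbered libraries did not visibly deviate together (correlations -0.003 to 0.004 for circRNAs and -0.030 to -0.016 for hosts). With 3 libraries a group and this much noise between replicates, such values cannot show whether the numbers pair the samples. Besides those given above, the medians of reported lists that changed sign were TGF-beta, BMP, Wnt, Notch and Hippo signalling (0.16 without day 0 replicate 3, 0.13 without day 3 replicate 1), extracellular matrix and adhesion (0.05 without day 0 replicate 3, 0.03 in the fit of only these 2 groups) and splicing factors and RNA-binding proteins (0.01 to 0.06 without day 0 replicate 3, day 3 replicate 2 or day 3 replicate 3). With the replicate block, the medians of signalling (0.02), dystrophin complex (0.02) and splicing factor (0.15) lists did. The fit of only these 2 groups tested 36 extracellular matrix and adhesion hosts in place of 44.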
